A study of Mus musculus with 11 samples.

Results

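The genes described here are 32 genes of the oligodendrocyte lineage, the cells that make central myelin, chosen by symbol. They were followed in RNA pulled down with tagged ribosomes of hippocampal astrocytes in female mice at midlife. Of the 32, 31 were matched to the 39017 gene identifiers of the count table, and Lhfpl3 was not analysed here. The 31 fall into 12 genes of the myelin sheath, 7 enzymes and other genes of mature cells, 5 transcription factors, 3 genes of newly formed oligodendrocytes and 4 genes of precursors. Libraries came from 11 mice on the C57BL/6J background, aged 12 to 14 months, 1 library per mouse. The 4 ERβ cKO (sham) mice (F1, F3, F4 and F5) carried the mGFAP-Cre transgene, the RiboTag allele and homozygous floxed exon 3 of Esr2, and had sham surgery. The 4 WT (GDX) mice (F1 to F4) carried the Cre transgene and the RiboTag allele and had their ovaries removed at 2 months of age. The 3 WT (sham) mice (F1, F3 and F4) had the same alleles as WT (GDX) and sham surgery. Values of single mice are given in these orders of mice. Cre, driven by the mouse Gfap promoter, puts an HA tag on the ribosomal protein RPL22, so that ribosomes and their mRNA can be taken from homogenized hippocampus with beads against HA. The cKO mice came from a breeding cross of their own, so cross and genotype cannot be told apart.

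Oligodendrocyte precursors persist in the adult hippocampus, divide under the control of platelet-derived growth factor acting on the receptor encoded by Pdgfra, and carry the NG2 proteoglycan encoded by Cspg4. Cells that leave this state pass through a short stage marked by Gpr17, Enpp6 and Bcas1, and then switch on the genes of the myelin sheath under Sox10, Olig1, Olig2, Nkx6-2 and Myrf. None of these genes is a marker of mature astrocytes, although Olig1 and Olig2 are also made by some astrocytes and Cspg4 and Pdgfra by pericytes and fibroblasts.

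Each library held 16956233 to 18190968 counts (median 17685486). Levels are given as CPM, counts per 1000000 counts of a library after its size was scaled by the trimmed mean of M values (TMM). Esr2 had 0 to 7 counts per library in all groups, so the deletion could not be checked at this depth, and counts per gene do not separate exon 3. The astrocyte label was checked on 20 astrocyte markers, among them Gfap at 1217 to 2141 CPM and Slc1a2 at 9391 to 15715 CPM over the mice. Neuronal RNA was present too, with Snap25 at 1293 to 2169 CPM. Nothing in the labels says that mice of a group came from separate litters or batches, so p-values measure the spread between these mice.

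Promoter windows of 4 genes are shown because Cspg4, Pdgfra and Neu4 carry the precursor result described below and because Mobp, a myelin gene, has a window dense in 1 motif. RefSeq windows of 250 bases before the start were found for 21 of the 31 genes, 27 windows in all, on build GRCm38.p6. The printed part stops before the GENCODE M21 start of the gene and lies on the plus strand in each case, at chr9:56864854-56865032 (Cspg4), chr5:75152001-75152250 (Pdgfra), chr1:94020243-94020450 (Neu4) and chr9:120149492-120149706 (Mobp). Capitals mark the E-box CANNTG, which basic helix-loop-helix factors such as Olig1 and Olig2 can bind, and the SOX core ACAAAG on either strand (CTTTGT on the strand shown). The motifs did not overlap each other in these windows.
Cspg4: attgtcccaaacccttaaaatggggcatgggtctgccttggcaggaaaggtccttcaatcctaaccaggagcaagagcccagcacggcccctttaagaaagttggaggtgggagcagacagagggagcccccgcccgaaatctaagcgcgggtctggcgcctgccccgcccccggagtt
Pdgfra: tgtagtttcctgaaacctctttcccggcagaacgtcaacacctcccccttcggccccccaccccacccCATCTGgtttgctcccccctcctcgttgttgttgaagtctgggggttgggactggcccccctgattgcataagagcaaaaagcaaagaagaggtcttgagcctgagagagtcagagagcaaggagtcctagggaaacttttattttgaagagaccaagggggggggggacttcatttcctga
Neu4: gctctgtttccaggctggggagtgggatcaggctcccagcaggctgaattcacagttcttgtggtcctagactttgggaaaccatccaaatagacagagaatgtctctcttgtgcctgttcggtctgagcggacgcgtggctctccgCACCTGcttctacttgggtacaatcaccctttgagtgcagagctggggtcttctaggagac
Mobp: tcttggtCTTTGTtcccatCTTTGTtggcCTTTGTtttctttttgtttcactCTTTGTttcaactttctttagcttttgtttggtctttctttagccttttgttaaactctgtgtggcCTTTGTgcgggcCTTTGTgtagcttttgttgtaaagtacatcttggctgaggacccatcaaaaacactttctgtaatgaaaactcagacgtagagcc

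Pdgfra and Neu4 each held 1 E-box, Mobp held 6 SOX cores and Cspg4 held neither. An E-box was in 66.7% of the 27 windows and in 66.2% of 32851 windows of all genes. The SOX core was in 29.6% against 16.5%, in the windows of Cnp, Gjb1, Mag, Mobp, Opalin and Tspan2, and Gjb1, Mag and Tspan2 have several windows each. The estrogen half-site GGTCA was in 25.9% against 35.2%, and the full element GGTCANNNTGACC, which contains the half-site, was in 0 of 27 windows against 0.0639%. Both strands were searched for each motif.

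The lineage genes were detected at low levels beside the astrocyte genes. In CPM per kilobase of exon, a level that can be compared between genes, the median of the 31 genes was 2.64, against 164 for 20 astrocyte genes, 105 for 16 neuronal genes, 0.791 for 14 microglial genes and 1.64 for 10 endothelial genes. By stage the medians were 4.3 for the myelin sheath, 1.04 for enzymes and other mature genes, 2.84 for transcription factors, 2.63 for newly formed cells and 1.75 for precursors. Car2, which encodes carbonic anhydrase II, was the highest of the 31 at 98.2 CPM per kilobase, followed by Olig1 at 46.7, Mbp, the main structural protein of compact myelin, at 33.1, and the myelin phosphodiesterase gene Cnp at 31.1. The lowest were Enpp6, a choline phosphodiesterase gene, at 0.0589 and the gap junction gene Gjb1 at 0.398. In bulk RNA of this kind, fewer cells of a type and less RNA per cell cannot be told apart, and neither can RNA of tagged astrocytes and RNA carried over from other cells.

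**Figure D1:**
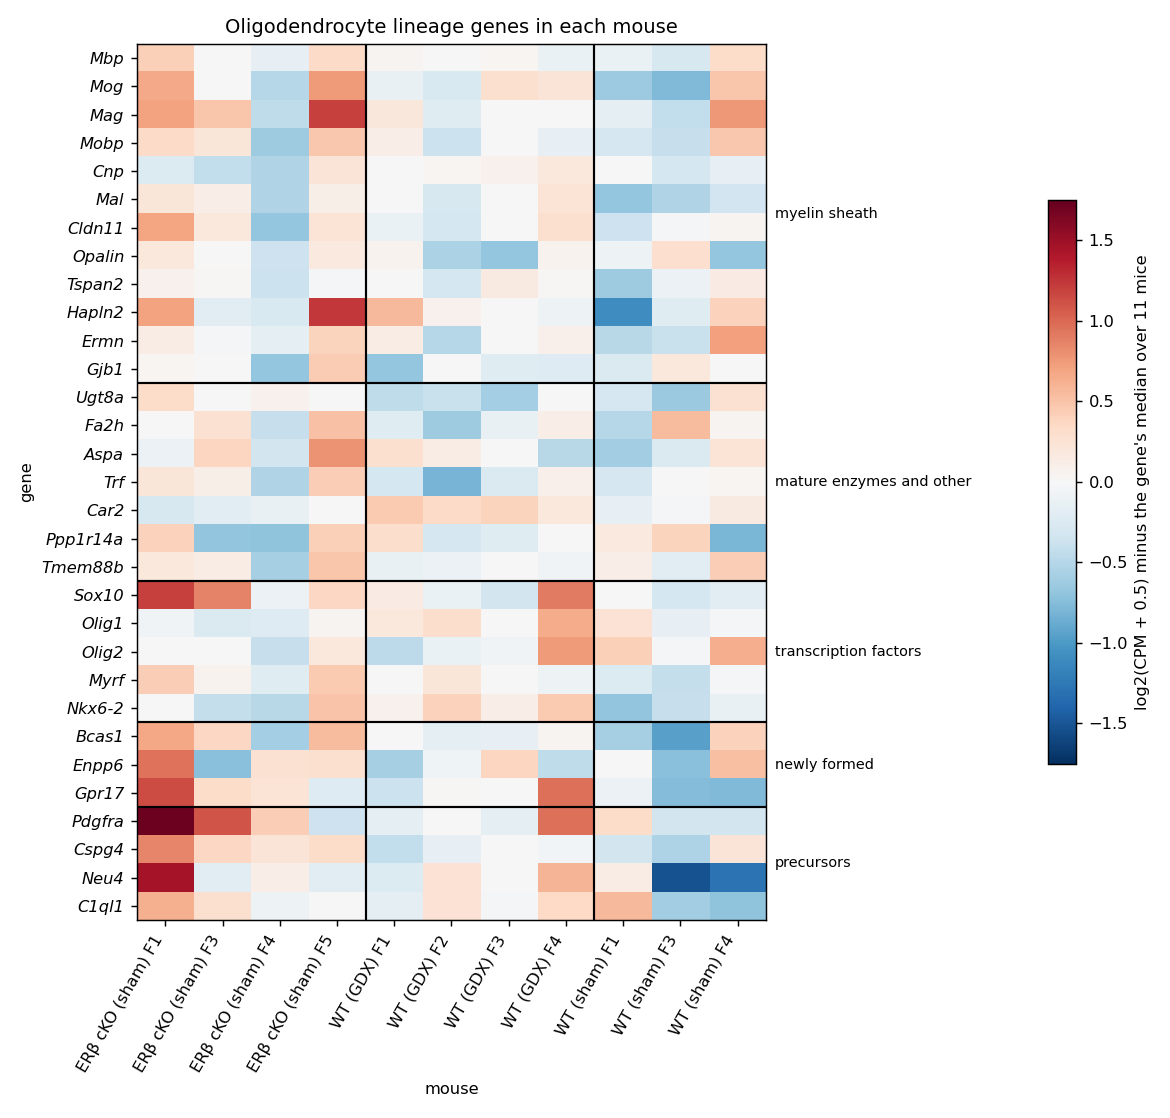
Level of each of 31 genes (rows, grouped by stage) in each of 11 mice (columns), as log2(CPM + 0.5) minus the median of that gene over the mice; red is above and blue below the median. ERβ cKO (sham) F1 is the highest mouse for all 4 precursor and all 3 newly formed genes, while ERβ cKO (sham) F4 is below the median for all 12 genes of the myelin sheath.

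How far the genes varied between mice was described with no test. The ratio of the highest to the lowest mouse had a median of 3.64 for the 4 precursor genes (2.72 to 10.9) and 2.56 for the 12 myelin sheath genes (1.63 to 5.55). Across 16074 genes averaging 10 counts or more, none of them at 0 in a library, the median ratio was 1.69.

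The highest mouse differed between the precursor and the myelin sums. The summed CPM of the 4 precursor genes was 97.8, 61.1, 46.3 and 37.3 for the ERβ cKO (sham) mice, 31.1, 38.1, 36 and 56.5 for the WT (GDX) mice, and 41.3, 25.5 and 32.8 for the WT (sham) mice. The ERβ cKO (sham) mice spanned the widest range, and F5 lay within the ranges of both other groups. The summed CPM of the 12 myelin sheath genes was 686, 552, 445 and 726 for the ERβ cKO (sham) mice, 583, 528, 577 and 555 for the WT (GDX) mice, and 497, 451 and 667 for the WT (sham) mice. ERβ cKO (sham) F5 was thus the highest mouse for the myelin sum and the lowest of its group for the precursor sum. As a percent of the myelin sum, the precursor sum ranged from 5.14 (F5) to 14.3 (F1) in ERβ cKO (sham), 5.33 to 10.2 in WT (GDX) and 4.91 to 8.3 in WT (sham).

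**Figure D2:**
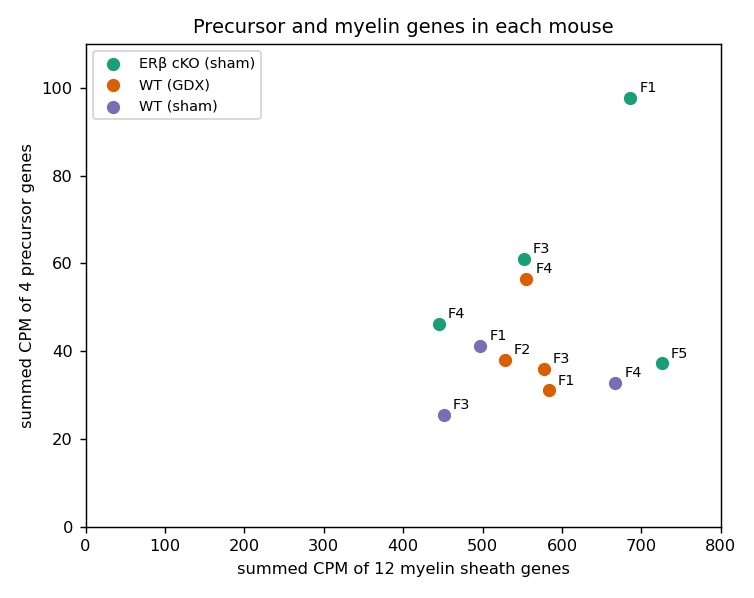
Summed CPM of 4 precursor genes (vertical axis) against summed CPM of 12 myelin sheath genes (horizontal axis), 1 point per mouse, coloured by group. ERβ cKO (sham) F1 lies at 97.8 CPM for precursors, and F5 of the same group at 37.3 CPM for precursors and 726 CPM for myelin.

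Whether single genes peaked together was also described by counting. Of the 31 genes, 12 were highest in ERβ cKO (sham) F5, among them 6 of the myelin sheath and 4 enzymes and other mature genes, and 11 were highest in ERβ cKO (sham) F1. WT (GDX) F4 was the highest mouse for Mal, Olig1 and Olig2. ERβ cKO (sham) F4 was above the median over mice for 6 of the 31 genes, WT (sham) F3 for 4 and ERβ cKO (sham) F5 for 25.

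The first comparison asked what deletion of ERβ in astrocytes did to these genes in mice with ovaries. Between ERβ cKO (sham) and WT (sham), 25 of 31 genes had a positive log2 fold change, with a median of 0.34, against 50.8% of all 19938 genes tested and a median of 0.00. The stage medians were 0.84 for precursors, 0.63 for newly formed cells, 0.39 for transcription factors, 0.18 for the myelin sheath and 0.05 for enzymes and other mature genes. With 1 mouse left out, the median of the 31 genes ran between 0.16 (without ERβ cKO (sham) F1) and 0.56 (without WT (sham) F4), that of the myelin sheath between 0.10 and 0.46 without the same mice, and that of enzymes and other mature genes between -0.13 (without ERβ cKO (sham) F5) and 0.24 (without WT (sham) F3). No single gene passed the test, in which a Benjamini-Hochberg adjusted p under 0.1 from edgeR's quasi-likelihood test over all genes is called changed: 0 of 31 were called, where 0.0301% of all genes were (0.0150% higher and 0.0150% lower). The smallest adjusted p was 0.676, 6 of the 31 had an unadjusted p under 0.05 (5.33% of all genes did), and 0 of the 31 were called by DESeq2 or by the exact or likelihood ratio test of edgeR. Differences between the stage medians were not tested.

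Among precursor genes, Cspg4 was the one whose mice did not overlap between the groups. Cspg4 (ENSMUSG00000032911, chromosome 9 of mm10, 56865033 to 56899870) had 26.4, 18.5, 16.8 and 18.1 CPM in the ERβ cKO (sham) mice, against 11.4, 9.72 and 16.8 CPM in the WT (sham) mice. Every ERβ cKO (sham) mouse lay above every WT (sham) mouse, by a narrow margin between F4 of each group, and groups did not overlap in 1 of the 31 genes against 6.34% of all genes (3.28% above and 3.06% below). The log2 fold change was 0.66 (SE 0.21, edgeR adjusted p = 0.676), and the exact two-sided permutation test gave p = 0.0571, the smallest that 4 mice against 3 can give.

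Pdgfra (ENSMUSG00000029231, chromosome 5, 75152292 to 75198215) had 53.4, 34.7, 21.6 and 12.2 CPM in the ERβ cKO (sham) mice, against 19.9, 12.6 and 12.6 CPM in the WT (sham) mice. The ERβ cKO (sham) mice ran from below the lowest WT (sham) mouse to far above the highest, a log2 fold change of 1.02 with an SE of 0.54 (edgeR adjusted p = 0.948). Without ERβ cKO (sham) F1 the value was 0.62. Neu4, a sialidase gene (ENSMUSG00000034000, chromosome 1, 94020451 to 94028334), had 12.6, 3.7, 4.69 and 3.69 CPM in the ERβ cKO (sham) mice, against 4.74, 1.16 and 1.46 CPM in the WT (sham) mice. One mouse, F1, stood apart in ERβ cKO (sham), and WT (sham) F1 was above the other 3 ERβ cKO (sham) mice. The log2 fold change of Neu4 was 1.33 (SE 0.64, edgeR adjusted p = 0.941), and 0.73 without ERβ cKO (sham) F1. C1ql1, which encodes a secreted complement-like protein, was at 4.02 ± 1.04 CPM in ERβ cKO (sham) (SD, n = 4) and 3.02 ± 1.87 CPM in WT (sham) (SD, n = 3), 0.41 on the log2 scale (SE 0.36).

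Of the genes of newly formed cells, Gpr17, a G protein-coupled receptor gene, had the smallest p. It had 27.3, 15.3, 14.4 and 10.3 CPM in the ERβ cKO (sham) mice, against 11.3, 7 and 6.94 CPM in the WT (sham) mice. The groups overlapped through ERβ cKO (sham) F5 and WT (sham) F1, and the log2 fold change was 1.01 (SE 0.31, edgeR adjusted p = 0.736). Bcas1, a marker of early myelinating cells, was at 26.8 ± 9 CPM in ERβ cKO (sham) (SD, n = 4) and 17.8 ± 9.3 CPM in WT (sham) (SD, n = 3), 0.60 on the log2 scale (SE 0.42). Enpp6 had 0 to 20 counts per library, with none in ERβ cKO (sham) F3 and WT (sham) F3, where 3 counts would be 0.173 and 0.174 CPM, and its difference was not detectable at this depth.

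The transcription factors went in different directions. Sox10, which is needed throughout the lineage, had 16.4, 12.8, 6.31 and 8.92 CPM in the ERβ cKO (sham) mice, against 6.84, 5.44 and 5.95 CPM in the WT (sham) mice. All but 1 of the ERβ cKO (sham) mice were above the WT (sham) mice, and the log2 fold change was 0.88 (SE 0.28, edgeR adjusted p = 0.689). Myrf, which turns on myelin genes, was at 0.45 on the log2 scale (SE 0.19) and Nkx6-2, a homeobox gene, at 0.39 (SE 0.31). Olig2 was lower at 19.3 ± 3.17 CPM in ERβ cKO (sham) (SD, n = 4) against 25.8 ± 5.84 CPM in WT (sham) (SD, n = 3), -0.41 on the log2 scale (SE 0.18, edgeR adjusted p = 0.89), and its neighbour Olig1 was at -0.15 (SE 0.13).

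Among mature genes, Mal, a proteolipid of myelin membranes, had the smallest p at a log2 fold change of 0.52 (SE 0.18, edgeR adjusted p = 0.754). Its levels were 28.5, 26.7, 16.9 and 26.3 CPM in the ERβ cKO (sham) mice, against 15.2, 16.8 and 19.4 CPM in the WT (sham) mice. ERβ cKO (sham) F4 was the mouse within the WT (sham) range. The log2 fold changes of the other 11 myelin sheath genes ran from -0.07 for Cnp (SE 0.16) to 0.73 for Hapln2, a link protein gene of the nodes (SE 0.50), with Mbp at 0.18 (SE 0.16), Mog, a protein of the outer myelin surface, at 0.56 (SE 0.39) and Mag, a protein of the membrane that faces the axon, at 0.47 (SE 0.45). The 7 enzymes and other mature genes ran from -0.14 for Car2 (SE 0.12) to 0.48 for Aspa, which breaks down N-acetylaspartate (SE 0.35).

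**Figure D3:**
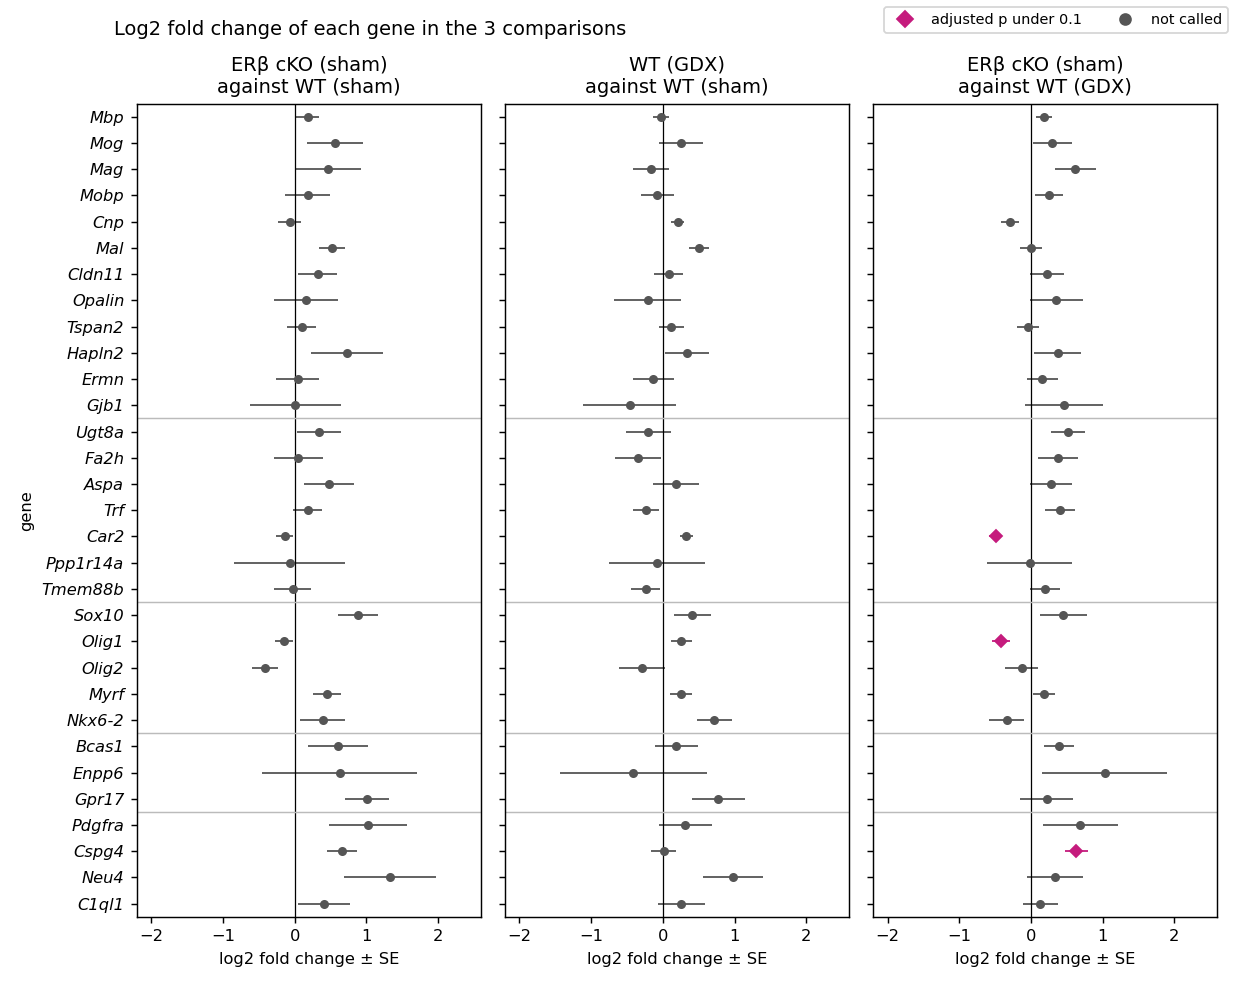
Log2 fold change and its standard error (horizontal bars) for each of 31 genes, in edgeR fits of ERβ cKO (sham) against WT (sham), WT (GDX) against WT (sham) and ERβ cKO (sham) against WT (GDX). Diamonds mark the genes with an adjusted p under 0.1, which are Car2, Olig1 and Cspg4 in the comparison of ERβ cKO (sham) with WT (GDX).

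The second comparison asked what long-term loss of the ovaries did to these genes in WT mice. Between WT (GDX) and WT (sham), 18 of 31 genes had a positive log2 fold change, with a median of 0.12, against 48.6% of 19695 genes and a median of -0.01. The stage medians were 0.29 for precursors, 0.19 for newly formed cells, 0.26 for transcription factors, 0.03 for the myelin sheath and -0.20 for enzymes and other mature genes. The median of the 31 genes was -0.02 without WT (sham) F1 and 0.27 without WT (sham) F4, and that of the myelin sheath was -0.07 and 0.26 without those mice. In edgeR's quasi-likelihood test 0 of 31 genes were called, where 0.437% of all genes were, with a smallest adjusted p of 0.156. At an unadjusted p under 0.05 there were 5 genes (7.98% of all genes), each higher in WT (GDX). DESeq2 called Car2, the likelihood ratio test called Mal and the exact test called 0, and without the filter on low counts the quasi-likelihood test called Mal, Car2, Gpr17 and Neu4.

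In 4 of the 31 genes, Cnp, Mal, Car2 and Nkx6-2, every WT (GDX) mouse lay above every WT (sham) mouse, as in 5.87% of all genes, and in 0 genes every WT (GDX) mouse lay below, against 2.97% (8.84% either way). Car2 had 310, 283, 295 and 256 CPM in the WT (GDX) mice, against 204, 219 and 250 CPM in the WT (sham) mice. The 2 groups came closest at F4 of each, and the log2 fold change was 0.33 (SE 0.09, edgeR adjusted p = 0.156). Mal had 24.6, 20.2, 24.7 and 29.1 CPM in the WT (GDX) mice, against 15.2, 16.8 and 19.4 CPM in the WT (sham) mice. Its log2 fold change was 0.51 (SE 0.14, edgeR adjusted p = 0.173). Without WT (sham) F4, 3 genes were called, Mal at 0.61, Car2 at 0.42 and Bcas1 at 0.70 on the log2 scale, and Car2 was also called without WT (GDX) F4.

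Nkx6-2 had 5.32, 6.8, 5.49 and 7.13 CPM in the WT (GDX) mice, against 2.92, 3.7 and 4.55 CPM in the WT (sham) mice, 0.72 on the log2 scale (SE 0.24, edgeR adjusted p = 0.324). Cnp had 121, 124, 127 and 137 CPM in the WT (GDX) mice, against 120, 97.1 and 109 CPM in the WT (sham) mice. The groups nearly met at F1 of each, and the log2 fold change was 0.21 (SE 0.09, edgeR adjusted p = 0.578). Cnp and Nkx6-2 share exons with other genes, as described below, so their values are uncertain. For Cnp, Mal, Car2 and Nkx6-2 the exact two-sided permutation test gave its smallest p, 0.0571.

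Precursor genes in WT (GDX) turned on a few mice. Pdgfra had 14.1, 15.9, 14.1 and 31.5 CPM in the WT (GDX) mice, so that F4 stood apart from 3 mice within the WT (sham) range, and the log2 fold change of 0.31 (SE 0.37) was -0.06 without that mouse. Within the group, Gpr17 and Sox10 were also highest in F4, at 24.2 and 13.2 CPM. Neu4 had 3.57, 5.19, 4.28 and 6.73 CPM in the WT (GDX) mice, against 4.74 CPM in WT (sham) F1 and 1.16 and 1.46 CPM in F3 and F4. Its log2 fold change of 0.98 (SE 0.42, edgeR adjusted p = 0.578) was 1.90 without WT (sham) F1, where it passed the test (adjusted p = 0.0136). Cspg4 was at 12.9 ± 1.71 CPM in WT (GDX) (SD, n = 4) and 12.6 ± 3.69 CPM in WT (sham) (SD, n = 3), 0.01 on the log2 scale (SE 0.18).

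The third comparison set ERβ cKO (sham) against WT (GDX), groups that differ in both genotype and surgery. Here 3 of 31 genes were called by edgeR's quasi-likelihood test, where 4.15% of all 19759 genes were (1.93% higher and 2.22% lower). Cspg4 rose in ERβ cKO (sham) mice, and Car2 and Olig1 fell. Of the 31 genes 23 had a positive log2 fold change, with a median of 0.25, against 50.2% of all genes and a median of 0.00, and the stage medians were 0.48 for precursors, 0.39 for newly formed cells, -0.13 for transcription factors, 0.24 for the myelin sheath and 0.28 for enzymes and other mature genes. The precursor median was 0.12 without ERβ cKO (sham) F1. The median of the 31 genes was 0.44 when ERβ cKO (sham) F4 was left out and 0.13 when F5 was, and that of the myelin sheath was 0.44 and 0.11 without those mice. At an unadjusted p under 0.05 there were 5 of the 31 genes, and 17.2% of all genes.

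Car2 (ENSMUSG00000027562, chromosome 3, 14886273 to 14900770) had 185, 196, 205 and 225 CPM in the ERβ cKO (sham) mice, against 310, 283, 295 and 256 CPM in the WT (GDX) mice. Every ERβ cKO (sham) mouse was below every WT (GDX) mouse, as in 5.77% of all genes. Car2 fell by 0.49 on the log2 scale (SE 0.09, edgeR adjusted p = 0.0186) and passed with any 1 mouse left out.

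Cspg4 had 26.4, 18.5, 16.8 and 18.1 CPM in the ERβ cKO (sham) mice, against 10.5, 13, 14.3 and 13.8 CPM in the WT (GDX) mice. Every ERβ cKO (sham) mouse was above every WT (GDX) mouse, which held for Cspg4 and Ugt8a among the 31 genes and for 4.24% of all genes. The log2 fold change of Cspg4 was 0.63 (SE 0.16, edgeR adjusted p = 0.0539). It did not pass without ERβ cKO (sham) F1, where it was 0.48 (adjusted p = 0.193), or without any 1 of the WT (GDX) mice (0.56 to 0.69).

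Olig1 (ENSMUSG00000046160, chromosome 16, 91269772 to 91271933) had 91.1, 79.6, 81.6 and 98.2 CPM in the ERβ cKO (sham) mice, against 108, 118, 95.3 and 150 CPM in the WT (GDX) mice. The groups overlapped through ERβ cKO (sham) F5 and WT (GDX) F3, and WT (GDX) F4 was the highest mouse of all. Olig1 fell by 0.42 on the log2 scale (SE 0.13, edgeR adjusted p = 0.092), a call that was kept with 1 mouse left out only without ERβ cKO (sham) F5, and the value was -0.27 without WT (GDX) F4. Exact two-sided permutation tests gave p = 0.0286 for Car2 and Cspg4, the smallest that 4 mice against 4 can give, and p = 0.0571 for Olig1.

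The other genes of the set were not called. Ugt8a, which makes the myelin lipid galactosylceramide, was at 3.89 ± 0.481 CPM in ERβ cKO (sham) and 2.71 ± 0.592 CPM in WT (GDX) (SD, n = 4 each), 0.52 on the log2 scale (SE 0.24, edgeR adjusted p = 0.272). Mag was at 23.2 ± 10.1 CPM in ERβ cKO (sham) and 15.2 ± 1.8 CPM in WT (GDX) (SD, n = 4 each). Its log2 fold change of 0.62 (SE 0.28) was 0.86 without ERβ cKO (sham) F4, the lowest mouse, and 6 genes were called without that mouse: Mag, Mobp, Trf, Car2, Bcas1 and Cspg4. Cnp was at -0.29 (SE 0.13, edgeR adjusted p = 0.281), and at -0.47 without ERβ cKO (sham) F5, where it was called (edgeR adjusted p = 0.00175). Mal was at -0.00 (SE 0.15). Pdgfra was at 0.69 (SE 0.52), Neu4 at 0.33 (SE 0.39) and Gpr17 at 0.22 (SE 0.37), and Neu4 and Gpr17 turned to -0.28 and -0.11 without ERβ cKO (sham) F1.

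**Figure D4:**
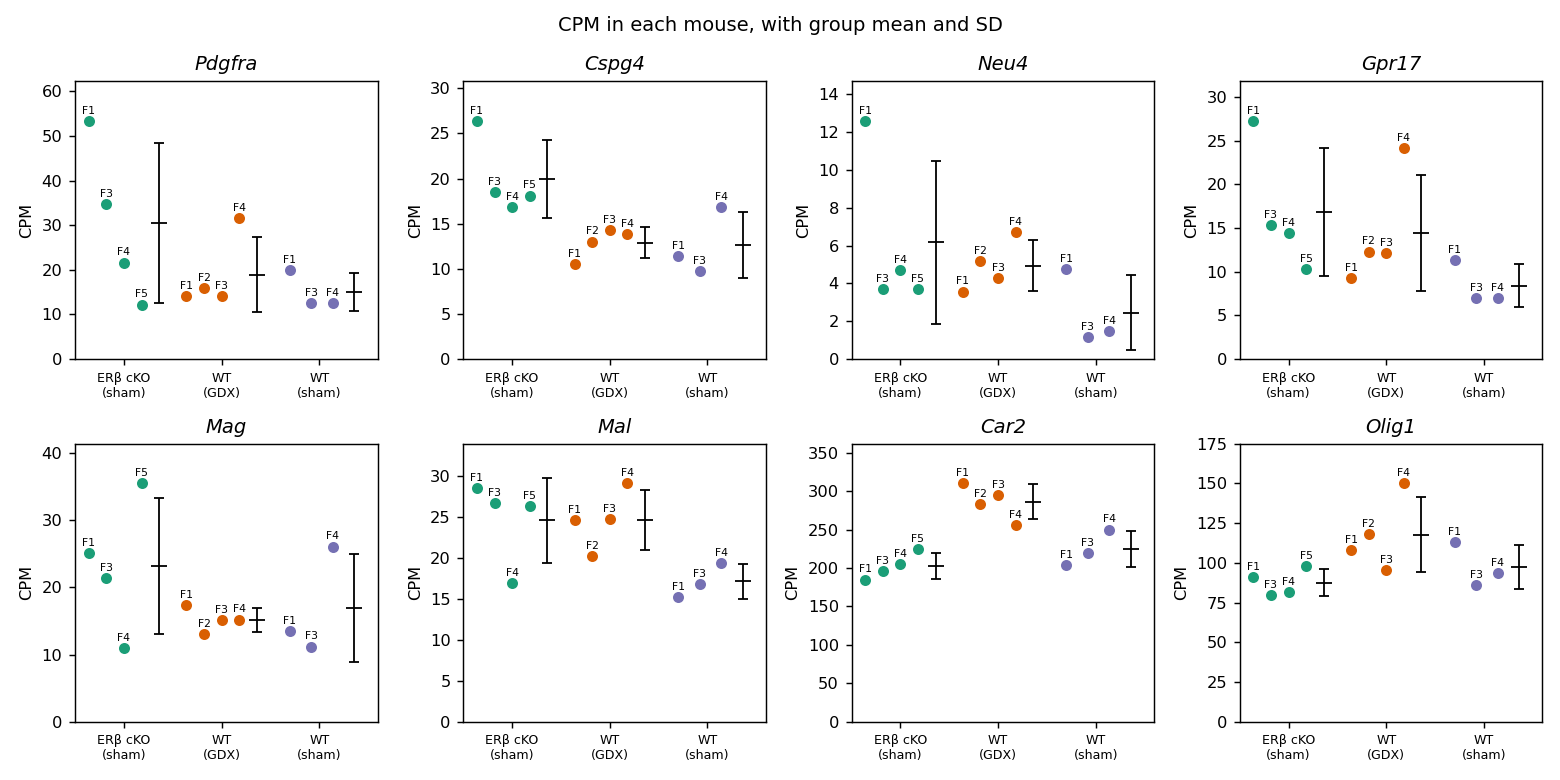
CPM of 8 genes in each mouse, with the mean and SD of each group beside the points, for ERβ cKO (sham) (n = 4), WT (GDX) (n = 4) and WT (sham) (n = 3). Car2 does not overlap between ERβ cKO (sham), 185 to 225 CPM, and WT (GDX), 256 to 310 CPM, whereas Pdgfra and Neu4 are drawn up by ERβ cKO (sham) F1 at 53.4 and 12.6 CPM.

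The 3 comparisons share mice, so each gene's values are not independent between them. Car2 had means of 203 ± 16.9 CPM in ERβ cKO (sham) (SD, n = 4), 286 ± 22.5 CPM in WT (GDX) (SD, n = 4) and 224 ± 23.7 CPM in WT (sham) (SD, n = 3), and was at -0.14 (SE 0.12) on the log2 scale in ERβ cKO (sham) against WT (sham). Cspg4 had means of 19.9 ± 4.37, 12.9 ± 1.71 and 12.6 ± 3.69 CPM in the same order of groups. For Olig1 they were 87.6 ± 8.63, 118 ± 23.4 and 97.5 ± 14.1 CPM, again in that order.

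Other genes of the pathway were taken from 6 whole lists. Of 10 other precursor genes, 1 was called higher and 1 lower in ERβ cKO (sham) against WT (GDX), with a median of 0.18. Over all genes tested in this comparison, 1.93% were called higher and 2.22% lower. Vcan, a proteoglycan gene of precursors, rose to 15.5 ± 3.55 CPM in ERβ cKO (sham), against 9.44 ± 1.27 CPM in WT (GDX) (SD, n = 4 each), 0.72 on the log2 scale (SE 0.17, edgeR adjusted p = 0.0445), and was at 0.70 (SE 0.25, edgeR adjusted p = 0.793) against WT (sham). Rlbp1, a retinoid carrier gene also made by astrocytes, fell by 0.44 in ERβ cKO (sham) against WT (GDX) (SE 0.12, edgeR adjusted p = 0.0764). Of 23 other mature oligodendrocyte genes tested, Efhd1 and Ndrg1 were called lower in that comparison, by 0.48 (SE 0.13) and 0.32 (SE 0.09), and the list median was 0.12.

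Among 15 receptors and regulators of the lineage, the differentiation inhibitors Id4 and Id2 fell in ERβ cKO (sham) against WT (GDX). Both were called lower, where 2.22% of all genes were. Id4 was at 109 ± 25.1 CPM in ERβ cKO (sham) and 197 ± 18.2 CPM in WT (GDX) (SD, n = 4 each), -0.85 on the log2 scale (SE 0.13, edgeR adjusted p = 0.0108), and Id2 at -0.60 (SE 0.11, edgeR adjusted p = 0.0132). Id4 also rose in WT (GDX) against WT (sham), by 0.37 (SE 0.09, edgeR adjusted p = 0.0814), where WT (sham) was at 150 ± 5.7 CPM (SD, n = 3). Both genes are also made by astrocytes. Of 16 genes of cholesterol and lipid synthesis, 13 were negative in ERβ cKO (sham) against WT (GDX), with a list median of -0.22. Sc5d at -0.48 (SE 0.09) and Hmgcs1 at -0.36 (SE 0.09) were called lower, again where 2.22% of all genes were. Of 10 other genes of newly formed cells, 0 were called by edgeR's quasi-likelihood test in ERβ cKO (sham) against WT (GDX), with 4 at an unadjusted p under 0.05, and of 11 ligands 0 were called there, with 1 at that level. In ERβ cKO (sham) against WT (sham), the smallest edgeR adjusted p over the 6 lists was 0.565. Id4 was the one gene of these lists called in WT (GDX) against WT (sham), where 0.437% of all genes were.

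Genes of other cell types moved beside these results, and their part in them was not tested. In ERβ cKO (sham) against WT (GDX), 20 of 20 astrocyte genes were negative, with a median of -0.46 and 20 at an unadjusted p under 0.05. Of the 20, 13 were called lower, where 2.22% of all genes were. Their summed level was 28526 to 36001 CPM in ERβ cKO (sham) and 41103 to 48346 CPM in WT (GDX), with none at 0. The mean astrocyte sum was 31808 CPM in ERβ cKO (sham), 43604 CPM in WT (GDX) and 35609 CPM in WT (sham). Car2 had means of 203, 286 and 224 CPM in the same order of groups. Which cells the Car2 RNA came from was not tested. Between ERβ cKO (sham) and WT (GDX), 10 of 10 endothelial genes were positive, with a median of 1.0 and 10 at an unadjusted p under 0.05. Of the 10, 5 were called higher, where 1.93% of all genes were. The endothelial sum was 120 to 174 CPM in ERβ cKO (sham), 45.4 to 99.9 CPM in WT (GDX) and 42.3 to 126 CPM in WT (sham). Of 12 genes of pericytes and smooth muscle, cells that also make Cspg4 and Ppp1r14a, 12 were positive with a median of 0.80 and 0 were called in edgeR's quasi-likelihood test (6 at an unadjusted p under 0.05). Their sum was 127 to 156 CPM in ERβ cKO (sham), 72.2 to 123 CPM in WT (GDX) and 79.2 to 141 CPM in WT (sham). Against WT (sham), 9 of the 12 were positive in ERβ cKO (sham), with a median of 0.37, 0 called by edgeR's quasi-likelihood test and 2 at an unadjusted p under 0.05. Among them Vtn was at 0.89 (SE 0.29) in ERβ cKO (sham) against WT (GDX) and at 0.96 (SE 0.25) against WT (sham), Rgs5 at 0.49 (SE 0.15) and 0.72 (SE 0.18), and the receptor gene Pdgfrb at 0.06 (SE 0.11) and -0.08 (SE 0.16). No endothelial or pericyte marker was at 0 in a whole group. The endothelial median was 1.05 in ERβ cKO (sham) against WT (sham), with 0 of 10 genes called by edgeR's quasi-likelihood test and 7 at an unadjusted p under 0.05. There 0 of 20 astrocyte genes were positive, with a median of -0.18, 0 called by that test and 3 at an unadjusted p under 0.05. In WT (GDX) against WT (sham), 19 of 20 astrocyte genes were positive, with a median of 0.23 and 13 at an unadjusted p under 0.05. Of the 20, 3 were called higher, where 0.325% of all genes were.

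Choroid plexus epithelium also makes Car2 and Trf, the transferrin gene. The summed level of its 18 markers was 58.6 to 71.2 CPM in ERβ cKO (sham) and 57.8 to 65.1 CPM in WT (GDX), against 124 to 403 CPM in WT (sham). Most of the sum was Kl and Enpp2 in ERβ cKO (sham) (means of 23.8 and 25.1 CPM) and WT (GDX) (22.4 and 24.1 CPM). Ttr had means of 1.37 CPM in ERβ cKO (sham), 0.301 CPM in WT (GDX) and 67.8 CPM in WT (sham). In WT (GDX) against WT (sham) 17 of 17 tested were negative, with a median of -2.26. Of these 9 were called lower, where 0.112% of all genes were, and 16 had an unadjusted p under 0.05. In ERβ cKO (sham) against WT (sham) 17 of 17 were also negative, with a median of -1.88. There 3 were called lower, where 0.0150% of all genes were, and 13 had an unadjusted p under 0.05. Between ERβ cKO (sham) and WT (GDX), 0 of the 15 tested were called by edgeR's quasi-likelihood test (1 at an unadjusted p under 0.05), and Otx2 had no counts in ERβ cKO (sham) and Kcnj13 none in WT (GDX). Of 10 genes of meninges and fibroblasts, which share Pdgfra and Cldn11, Col1a1 rose by 1.02 (SE 0.30) and Igfbp2 fell by 0.49 (SE 0.12) in that comparison, and the sum was 139 to 174 CPM in ERβ cKO (sham), 183 to 194 CPM in WT (GDX) and 181 to 203 CPM in WT (sham). ERβ cKO (sham) F1, the mouse with the highest precursor sum, had a fibroblast sum of 139 CPM, the lowest of the 11, and an endothelial sum of 120 CPM, the lowest of its group. The fibroblast sum follows mainly Dcn and Igfbp2, with means of 98.6 and 46.4 CPM of a mean sum of 157 CPM in ERβ cKO (sham). The collagen genes Col1a1 and Col1a2 had means of 2.96 and 1.81 CPM there. What the sum says of Pdgfra was not tested. The medians of 16 neuronal genes were 0.03, -0.07 and 0.05 in the 3 comparisons in the order given above, those of 14 microglial genes 0.08, 0.13 and 0.03, and those of 12 genes of ependyma and motile cilia -0.94, -0.70 and -0.16.

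Some genes share exons with another annotated gene, and whether the counting used strand is not given in the sources used here. Cnp overlaps Dnajc7 (2240 to 2676 counts per library) and Nkx6-2 overlaps Inpp5a (460 to 646 counts) on the opposite strand, and Trf shares exons on its own strand with Gm20425 (328 to 493 counts), so the values of these 3 genes are uncertain. Gpr17, which had 119 to 493 counts per library, overlaps Lims2 (41 to 112 counts) on the opposite strand, so its values are uncertain as well. Overlaps of Bcas1, Ermn, Tspan2, Olig1 and Pdgfra were with genes of at most 47 counts per library.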

How the data were processed

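Ribosome-bound RNA of hippocampal astrocytes was sequenced from 11 female mice. The authors made KAPA stranded libraries, read them single-end, demultiplexed with bcl2fastq 2.17, inspected reads in FastQC, trimmed with Trimmomatic, and used QuasR for gene counts on mm10. The deposited values are raw counts, with no normalization. No source used here states the strand setting, the rule for reads with several matches, the annotation release or the remaining versions. Of 39017 identifiers, 37607 matched GENCODE M21, which gave names, exon lengths and places, and the other 1410 held 0.515% of counts. Depth was 16956233 to 18190968 counts per library, so 3 counts are 0.165 to 0.175 CPM, a limit that covers counting error only.

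Groups came from the labels. Pairs of groups were fitted one at a time. A gene was dropped where more than 3 of the libraries in the pair had a count below 1. After TMM scaling, edgeR's robust quasi-likelihood test (edgeR 4.0.16, limma 3.58.1, R 4.3.3) was run on all remaining genes with Benjamini-Hochberg adjustment, called at 0.1. CPM used TMM-scaled sizes over 11 libraries. Single genes were also tested by exact permutation, two-sided, on log2(CPM + 0.5). Members and the 14 lists of other genes were chosen with earlier results of these data known. The rule for named genes covers every member, and from each list the genes called changed and up to 4 with the smallest p. Gfap, Slc1a2, Snap25 and Pdgfrb were named as defining markers after their values were seen, and Esr2 as a check of the label. Enpp2 was named for its share of a sum, also after its values were seen. Alternatives were the size factors or the test of DESeq2 1.42.0, library size alone, other filters, the likelihood ratio and exact tests of edgeR, a single fit of the 3 groups, a block on mouse number (without mice that lack a partner), a threshold of 0.05 and leaving out each mouse. The scripts were tested on simulated counts. Mice of a group differed by more than sampling noise.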

Additional observations from a re-analysis of the deposited data

Results flagged for a closer look

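Of 62 sets of 4 mice tested (31 genes, each in the ERβ cKO (sham) and the WT (GDX) group), 2 had 1 mouse far from the other 3 by Dixon's gap test at the 95% level, which chance passes in about 1 of 20 sets. Neu4 was at 12.6 CPM in ERβ cKO (sham) F1, against 3.69 to 4.69 CPM in the other 3 mice of the group, a gap of 0.888 of the range. Pdgfra was at 31.5 CPM in WT (GDX) F4, against 14.1 to 15.9 CPM in the other 3, a gap of 0.899 of the range. Both are precursor genes, and the group of 3 WT (sham) mice was not tested.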

How the results depend on the processing

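In ERβ cKO (sham) against WT (sham), the number of the 31 genes called stayed at 0 under every alternative but the replicate block on the mouse number, where it was 3 (Gpr17 at 1.16, Pdgfra at 1.23 and Neu4 at 1.58 on the log2 scale), and the median of the transcription factors was then 0.13. The block left out mice with no partner number, ERβ cKO (sham) F5 and WT (GDX) F2, so it changed the samples as well. Without ERβ cKO (sham) F5 and with no block, 0 genes were called in this comparison. In WT (GDX) against WT (sham), the count was 4 without a filter on low counts (Mal, Car2, Gpr17 and Neu4), 1 with the DESeq2 test (Car2), 1 with edgeR's likelihood ratio test (Mal), 2 with the replicate block (Mal and Gpr17) and 0 to 3 with 1 mouse left out. In ERβ cKO (sham) against WT (GDX), it was 1 at an adjusted p under 0.05 (Car2), 4 with the replicate block (Cnp, Car2, Cspg4 and Olig1), 4 without ERβ cKO (sham) F5 and with no block (also Cnp, Car2, Cspg4 and Olig1) and 1 to 6 with 1 mouse left out. Olig1 was not called with library size alone (-0.37), filterByExpr (-0.40), the filter over all 11 libraries (-0.42) or all 3 groups in 1 fit (-0.41). The cause of these changes was not tested. Mice with the same number did not deviate together, with correlations of -0.20 to 0.14 over the 3 shared numbers of each pair of groups, so the block pairs mice by number only.

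With 1 mouse left out, the medians of the newly formed genes ranged from 0.36 to 1.11, of the transcription factors from 0.13 to 0.56 and of the precursors from 0.57 to 1.17 in ERβ cKO (sham) against WT (sham). They ranged from -0.06 to 0.65 for newly formed genes and 0.07 to 0.74 for precursors in WT (GDX) against WT (sham). In ERβ cKO (sham) against WT (GDX), they ranged from -0.27 to 0.15 for transcription factors, 0.03 to 0.46 for enzymes and other mature genes, 0.26 to 0.62 for newly formed genes and 0.12 to 0.60 for precursors. Of 1609 values of single genes, 79 changed sign, and 5 of these had a log2 fold change above its SE before. They were Mog (-0.06), Mobp (-0.01) and Hapln2 (-0.07) under the block and Hapln2 without ERβ cKO (sham) F5 (-0.00, in a range of -0.00 to 0.57 with 1 mouse left out) in ERβ cKO (sham) against WT (GDX), and Fa2h without WT (sham) F3 (0.01, in a range of -0.60 to 0.01) in WT (GDX) against WT (sham). Depth limits Enpp6, Gjb1 and Ppp1r14a most, which had at most 21 counts in a library.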
